A study of Mus musculus with 12 samples.

Results

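The genes described here are 46 genes of fatty acid and cholesterol metabolism, which encode transporters, activating enzymes, oxidation enzymes, enzymes of fatty acid synthesis and enzymes that build glycerolipids and ceramides. They were chosen by symbol as a list of names, with no threshold on a measured value, from the 5545 genes analysed here, whose symbols end at Cyp26b1 in alphabetical order. Genes beyond it, among them those of fatty acid synthase, the low density lipoprotein receptor and the enzymes of the mevalonate pathway, were not analysed here. Of the 46 genes, 44 had 10 or more raw counts in at least 3 libraries and were tested together with all other such genes, 2661 in all. The other 2 were Acsl6, which had 0 counts in each library, and Acacb, whose raw counts ran from 0 to 18.

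RNA was sequenced from natural killer (NK) cells and type 1 innate lymphoid cells (ILC1) that had been sorted from the livers of 6 female C57BL/6 mice (C57BL/6J in the methods), 3 lean and 3 obese. Lean mice had been weaned onto the RM1 expanded diet, obese mice onto the diet labelled 824018 - 45% AFE fat with added condensed milk, and both diets lasted 12 weeks. NK cells were lineage-negative NK1.1+ CD49a- CD49b+ and ILC1 lineage-negative NK1.1+ CD49a+ CD49b-, so that each mouse gave 1 NK and 1 ILC1 library, and neither group carried an engineered allele. The 12 libraries form 4 groups of 3 (NK cells of lean mice, NK cells of obese mice, ILC1 of lean mice and ILC1 of obese mice), with mice numbered 25, 26 and 27 within each diet, and lean and obese mice of the same number are different animals.

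Long-chain fatty acids enter the cell partly through carriers such as CD36 and become usable once an acyl-CoA synthetase has joined them to coenzyme A. Carnitine acyltransferases then move the acyl groups across organelle membranes, and chain-specific dehydrogenases and thiolases shorten them in mitochondria, while peroxisomes take the longest and branched chains. Acetyl-CoA can be turned back into fatty acids after ATP citrate lyase and acetyl-CoA carboxylase have acted, and acyl-CoA can instead be built into phospholipids, triglycerides and ceramides. Cholesterol leaves the cell through the ATP-binding cassette transporters ABCA1 and ABCG1. Liver NK cells and ILC1 are related lymphocytes of the liver sinusoids, and the liver of an animal on a fat-rich diet exposes them to more lipid.

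Levels are given as normalized counts, the raw read counts that the authors divided by a factor for each library, in the order of mice 25, 26 and 27. They are not corrected for gene length unless stated as per kilobase of annotated exon. Within each role the gene with the highest mean normalized count is described first. Per kilobase it was also the highest of its role in both cell types, except in mitochondrial oxidation, where Acaa2 was above Acadvl in ILC1. Total raw counts over the genes analysed ran from 1666637 to 2826766 a library, which is less than the full depth, and the 46 genes together took between 1.47% and 1.91% of the normalized counts. A gene was called when edgeR's quasi-likelihood test, with all 12 libraries in 1 model of the 4 groups, gave a fold change over 2 and, after Benjamini-Hochberg adjustment, a p under 0.05.

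Sorted identity was described by other genes, which were listed with earlier results of these data known. Cxcr6, a chemokine receptor of liver ILC1, stood at 6272 to 23848 normalized counts in the ILC1 libraries and at 58 to 564 in the NK libraries. Cma1, a protease gene read strongly in NK cells, stood at 36 to 810 and 5096 to 9490. Of the 2 genes listed for NK cells, Cma1 and Cx3cr1, only 1 was called lower in ILC1. In the ILC1 library of obese mouse 26 these 2 summed to 3385, with Cma1 at 274. The summed level of 9 T cell genes was also higher in ILC1 (4821 to 17847) than in NK cells (993 to 2159), with Cd8a and Cd8b1 at 0 in all lean libraries of both cell types. The ILC1 library of obese mouse 26 stood apart: 22 hepatocyte genes summed to 383505 normalized counts there and to between 64 and 1352 in the other 11 libraries. In the same library 10 Kupffer cell genes summed to 50926 (at most 2120 elsewhere), 6 B cell genes to 19571 (at most 454) and 8 endothelial and stromal genes to 20906 (at most 245). Its 5 neutrophil and monocyte genes summed to 15325 (at most 9698 elsewhere). Of these 5, Camp, Cd177, Csf3r and Cxcr2 were at 0 in all lean libraries, where the sum was that of Ccr2 alone. The ILC1 library of obese mouse 26 held the highest level of 12 of the 44 lipid genes, or 27.3%, against 20.7% of all 2661 genes. Each comparison is therefore given with and without this library. The part of other cells in its values was not tested, and in bulk RNA a change in the number of cells of a type cannot be told apart from a change in RNA per cell.

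In a further 2 libraries, genes that were well read elsewhere were close to 0. Of the 1549 genes with a median of at least 100 normalized counts, 162 (10.5%) had at most 3 raw counts in the NK library of lean mouse 27 and 219 (14.1%) in the ILC1 library of obese mouse 25, against at most 14 (0.904%) in each of the other 10 libraries. The lipid genes shared in this: of the 37 with such a median, Acadm, Acaa2, Agpat4 and Cers6 were at that level in the NK library of lean mouse 27, and Acss2, Cpt1a, Cpt2, Acad9, Acadsb and Agpat4 in the ILC1 library of obese mouse 25. None of the 37 was that low in any other library. These gaps entered the spread within groups, and a fit without these 2 libraries and without the ILC1 library of obese mouse 26 is given beside the main values. It was chosen after the data had been seen. It leaves obese ILC1 with 1 library, so that the spread behind its p values comes from the other groups.

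**Figure D1:**
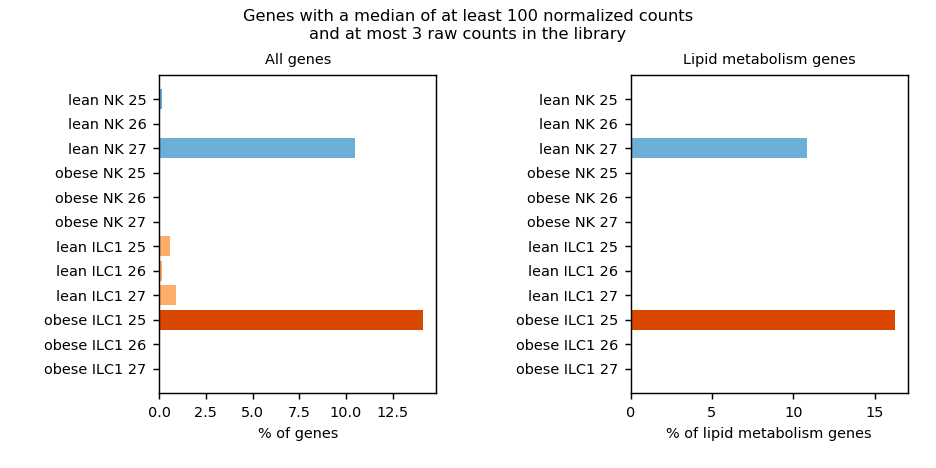
Percentage of genes with a median of at least 100 normalized counts that had at most 3 raw counts in each library, for all 1549 such genes (left) and for the 37 lipid metabolism genes among them (right). The NK library of lean mouse 27 and the ILC1 library of obese mouse 25 stand above the other 10 libraries in both panels.

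Between the cell types, 3 lipid genes passed on the adjusted p alone. Crot, the gene of the peroxisomal carnitine octanoyltransferase, was higher in ILC1, and Agpat3, a lysophosphatidic acid acyltransferase, and Cers2, a ceramide synthase, were lower in ILC1 than in NK cells at an adjusted p under 0.05, by less than 2-fold in each case. The share of the 44 genes that passed was 2.27% higher and 4.55% lower, against 3.42% and 2.22% of all genes tested. None of the 3 passed with NK cells and ILC1 of 1 animal paired by a replicate block (adjusted p = 0.086 for Crot, 0.059 for Agpat3 and 0.10 for Cers2). Between obese and lean mice no lipid gene was called in either cell type. The heat map of all 44 genes shows how much of the variation lay in single libraries.

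**Figure D2:**
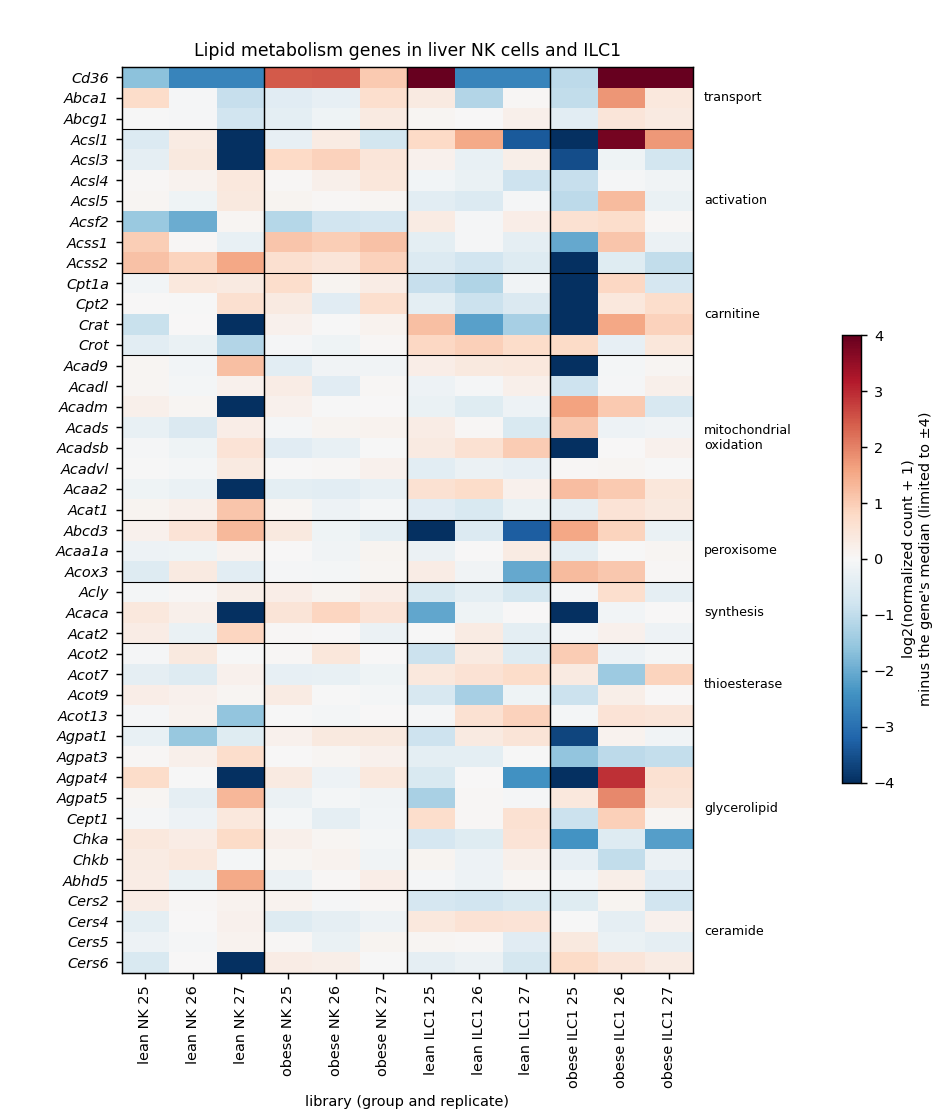
Heat map of 44 lipid metabolism genes (rows, grouped by role) in 12 libraries (columns, 4 groups of 3). Color gives log2(normalized count + 1) minus the median of the gene over all libraries, limited to 4 in either direction. Dark blue cells in the NK library of lean mouse 27 and the ILC1 library of obese mouse 25 are genes read close to 0 there, and Crot, Acot7 and Cers4 are red and Acss2 and Cers2 blue in most ILC1 libraries.

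The first question was whether ILC1 and NK cells differ in these genes, with lean and obese mice averaged. With all 12 libraries 0 of the 44 genes were called by edgeR's quasi-likelihood test, where 3.04% of all 2661 genes were called higher in ILC1 and 1.16% lower. DESeq2 called 1 of the 44 higher (Cd36) and 1 lower (Acss2), and an unadjusted p under 0.05 in edgeR was reached by 11 of the 44 (25%), against 18.7% of all genes. On the adjusted p alone, 1 gene passed as higher (Crot) where 3.42% of all genes did, and 2 as lower (Agpat3 and Cers2) where 2.22% did. Without the ILC1 library of obese mouse 26, Crot was called higher, with 3.20% of 2593 genes called higher and 1.70% lower. On the adjusted p alone, Crot and Acot7 were then higher (3.93% of all genes) and Agpat3, Cers2 and Acly lower (3.43%). Without the 3 libraries that stood apart, 1 of the 44 was called higher (Acot7) where 5.34% of 2582 genes were, and 3 lower (Acss1, Acss2 and Chka) where 4.30% were. In that fit 4 passed on the adjusted p alone as higher (Acaa2, Acot7, Cers4 and Crot) and 8 as lower (Acadm, Acly, Acss1, Acss2, Agpat3, Cers2, Chka and Cpt1a), against 8.40% and 9.18% of all genes.

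The median log2 difference of ILC1 against NK cells was -0.09 over the 44 genes, 19 of them above 0, and 0.04 over all 2661 genes, 52.3% of them above 0. Leaving out the ILC1 library of obese mouse 26, these medians were -0.22 and -0.09. The medians of the roles lay between -0.61 for the 7 activating enzymes and 0.25 for the 3 transporters. All libraries of the 2 cell types were apart for 1 gene that was higher in ILC1 (Acaa2), where 2.97% of all genes were, and for 3 that were lower (Acsl4, Acss2 and Agpat3), where 2.59% were. When the ILC1 library of obese mouse 26 was left out, 3 genes were apart as higher (Acaa2, Acot7 and Crot, 4.82% of all genes) and 5 as lower (Acsl4, Acss2, Agpat3, Cers2 and Cpt1a, 4.51%).

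Of the transporters, Abcg1, which passes cholesterol to lipoproteins, had the most counts. Its normalized counts were 3057, 3004 and 1804 in lean NK cells, 2353, 2733 and 3936 in obese NK cells, 3272, 3108 and 3584 in lean ILC1, and 2299, 4276 and 3962 in obese ILC1. The groups overlapped, and the log2 difference of ILC1 against NK cells was 0.25 (SE 0.20, adjusted p = 0.622). Abca1, which loads cholesterol onto apolipoprotein A-I, had its highest level, 618, in the ILC1 library of obese mouse 26 and lay between 80 and 302 in the others. Cd36, the fatty acid carrier and scavenger receptor (chromosome 5, 17781690 to 17888801, minus strand, GRCm38), was read at 1, 0 and 0 in lean NK cells and at 33, 34 and 12 in obese NK cells. In ILC1 it was at 100, 0 and 0 in lean mice and at 2, 9711 and 218 in obese mice. The ILC1 library of obese mouse 26 was 44.5 times as high as the next library, and the remaining ILC1 libraries spread from 0 to 218. In edgeR the log2 difference of ILC1 against NK cells, 6.56 (SE 1.95), did not pass. Its adjusted p was 0.080 with all libraries and 0.196 without the ILC1 library of obese mouse 26. DESeq2 called Cd36 higher in ILC1 with all libraries (adjusted p = 0.0065).

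Among the activating enzymes, Acsl5, a long-chain acyl-CoA synthetase, was read most. It stood at 2528, 2108 and 3118 in lean NK cells, 2600, 2475 and 2522 in obese NK cells, 1786, 1647 and 2317 in lean ILC1 and 1166, 5795 and 2013 in obese ILC1. All but 1 of the ILC1 libraries were at 2317 or less, and the exception was that of obese mouse 26. On the log2 scale ILC1 differed from NK cells by -0.13 (SE 0.31, adjusted p = 0.912) with all libraries and -0.57 (SE 0.17, adjusted p = 0.068) without it. Acss2, which makes acetyl-CoA from acetate in the cytosol and nucleus (chromosome 2, 155517948 to 155585724, plus strand), had 1194, 977 and 1550 normalized counts in lean NK cells and 819, 736 and 992 in obese NK cells, against 364, 308 and 367 in lean ILC1 and 4, 377 and 268 in obese ILC1. Each ILC1 library was below each NK library. The difference of ILC1 from NK cells was, on the log2 scale, -1.94 (SE 0.65, adjusted p = 0.121), and without the ILC1 library of obese mouse 25, where Acss2 had 3 raw counts, it was -1.65 with an adjusted p of 0.00041. Its values, like those of the other genes named in this comparison outside the rule for named genes, were singled out after they had been seen.

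Acss1, the mitochondrial acetyl-CoA synthetase, lay at 570, 293 and 230 in lean NK cells, 622, 563 and 643 in obese NK cells, 215, 277 and 223 in lean ILC1 and 68, 612 and 240 in obese ILC1. The obese NK libraries and the ILC1 library of obese mouse 26 were high and the lean NK libraries reached down to the lean ILC1 level. The log2 difference was -0.84 (SE 0.44, adjusted p = 0.354) with all libraries and -1.12 (SE 0.23, adjusted p = 0.0086) without the 3 libraries that stood apart. Acsl4, which prefers arachidonic acid, ran from 770 to 1018 in NK cells and from 388 to 714 in ILC1 (log2 difference -0.61, SE 0.21, adjusted p = 0.127). Acsl1, Acsl3 and Acsf2 were at most 203 outside the ILC1 library of obese mouse 26, where Acsl1 reached 858. Of the 39 lipid gene promoters read, that of Acsl1 alone held the sterol element TCACNCCAC, within chr8:46490860-46490928 (plus strand). The annotated gene starts at 46471037, so this window lies inside the gene, before an internal RefSeq start. The element is in capitals, on the minus strand of the window.
Acsl1: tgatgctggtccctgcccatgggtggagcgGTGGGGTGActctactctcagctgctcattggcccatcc

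Crot was the most strongly read of the carnitine acyltransferases. It lies on chromosome 5 from 8966033 to 8997324 on the minus strand (GRCm38) and encodes the enzyme that passes medium-chain acyl groups made in peroxisomes on to carnitine. Normalized counts were 1489, 1666 and 881 in lean NK cells, 1949, 1786 and 2051 in obese NK cells, 3549, 3840 and 3326 in lean ILC1, and 3387, 1588 and 2741 in obese ILC1. All ILC1 libraries except that of obese mouse 26 were above all NK libraries. The log2 difference of ILC1 against NK cells was 0.89 (SE 0.21, adjusted p = 0.034) with all 12 libraries, 1.02 (SE 0.16, adjusted p = 0.0026) without the ILC1 library of obese mouse 26, and 0.82 (SE 0.09, adjusted p = 0.00017) without the 3 libraries that stood apart. With the mouse as a replicate block, in which NK cells and ILC1 of 1 animal are paired, the log2 difference was 0.88 and the adjusted p 0.086.

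The other carnitine acyltransferases were read less and their spread was set by single libraries. Cpt1a, the enzyme that controls entry of long-chain acyl groups into mitochondria, had 452, 662 and 623 normalized counts in lean NK cells, 797, 529 and 598 in obese NK cells, 260, 214 and 445 in lean ILC1 and 0, 868 and 307 in obese ILC1. Only the ILC1 library of obese mouse 26 lay above the NK range, and that of obese mouse 25 had no read of the gene. ILC1 minus NK cells gave a log2 difference of -0.86 (SE 0.86, adjusted p = 0.734) with all libraries and -0.98 (SE 0.27, adjusted p = 0.033) without the 3 libraries that stood apart. Cpt2, its partner on the inner membrane, was at 170 to 377 in NK cells and at 0 to 383 in ILC1. Crat, which handles acetyl groups, was at most 182 in all libraries.

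Of the 8 genes of mitochondrial oxidation, Acadvl, the very long-chain acyl-CoA dehydrogenase, had the most counts. It had 1711, 1636 and 2229 normalized counts in lean NK cells, 1732, 1789 and 1962 in obese NK cells, 1282, 1454 and 1376 in lean ILC1 and 1770, 1818 and 1725 in obese ILC1. The lean ILC1 libraries were the lowest and the other groups overlapped, with a log2 difference between the cell types of -0.26 (SE 0.11, adjusted p = 0.241). Acat1, the mitochondrial acetoacetyl-CoA thiolase of ketone body and isoleucine breakdown, stood at 1339, 1452 and 2719 in lean NK cells, 1330, 1087 and 1177 in obese NK cells, 904, 824 and 1040 in lean ILC1 and 976, 1825 and 1629 in obese ILC1. The lean cell types were apart and the obese ones overlapped (log2 difference -0.37, SE 0.21, adjusted p = 0.403).

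Acaa2, the thiolase that ends each round of mitochondrial oxidation, had 785, 740 and 3 normalized counts in lean NK cells, 677, 659 and 712 in obese NK cells, 1345, 1471 and 992 in lean ILC1 and 2056, 1837 and 1201 in obese ILC1. Each ILC1 library was above each NK library, and the NK library of lean mouse 27 held almost no read of it. ILC1 differed from NK cells by a log2 value of 1.28 (SE 0.74, adjusted p = 0.419) with all libraries and 0.76 (SE 0.14, adjusted p = 0.0041) without the 3 that stood apart. For Acadm, the medium-chain dehydrogenase, the sign turned with those libraries, from 0.47 (SE 0.82, adjusted p = 0.876) to -0.60 (SE 0.13, adjusted p = 0.012). It was read at 1 in the NK library of lean mouse 27 and at 1891 in the ILC1 library of obese mouse 25, and at 398 to 1282 in the others. Acadl, Acads, Acadsb and Acad9 did not differ between the cell types beyond their spread, with adjusted p from 0.874 to 0.976 with all libraries.

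In the peroxisome group Acaa1a, the peroxisomal thiolase, had the most counts and was the most even. It had 504, 511 and 638 normalized counts in lean NK cells, 589, 521 and 621 in obese NK cells, 490, 587 and 735 in lean ILC1 and 438, 574 and 617 in obese ILC1. The log2 difference was -0.00054 with an SE of 0.18. Abcd3, a transporter of acyl-CoA into peroxisomes, was the most uneven of the group, at 241, 318 and 535 in lean NK cells, 282, 193 and 166 in obese NK cells, 6, 148 and 21 in lean ILC1 and 632, 402 and 180 in obese ILC1. The lean ILC1 libraries were the 3 lowest, and the log2 difference between the cell types averaged over diets was -0.88 (SE 0.65, adjusted p = 0.584). Acox3, an oxidase of branched acyl-CoA, ran from 54 to 550. Acaa1a has a near-identical neighbor, Acaa1b, as Acat2 has Acat3 and Acot2 has Acot1, and how shared reads were counted is not given in the sources used here, so that the levels of these 3 are uncertain. For 21 of the 46 genes an exon also overlaps an exon of another annotated gene, mostly on the opposite strand, and whether the counting used the strand is not given either. The overlap covers more than 10% of the exon bases of Chkb, Acadvl, Cept1, Agpat5 and Abhd5, whose levels are uncertain for this reason, and 9.12% in Acss2, 5.96% in Cers2, 3.04% in Crot and 0.205% in Agpat3.

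Acly, the ATP citrate lyase that supplies cytosolic acetyl-CoA, led the synthesis genes. It had 2127, 2319 and 2672 normalized counts in lean NK cells, 2710, 2413 and 2697 in obese NK cells, 1463, 1703 and 1381 in lean ILC1 and 2188, 3563 and 1774 in obese ILC1. The lean ILC1 libraries were all below the NK libraries, and that of obese mouse 26 was the highest of all. The difference of ILC1 from NK cells was, on the log2 scale, -0.38 (SE 0.16, adjusted p = 0.211) with all 12 libraries and -0.54 (SE 0.11, adjusted p = 0.013) without the ILC1 library of obese mouse 26. Acaca, the acetyl-CoA carboxylase of the cytosol, was read at 82 or less and Acat2, the cytosolic thiolase, at 225 to 534. Neither differed between the cell types beyond its spread (adjusted p = 0.849 and 0.848).

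Acot7, a cytosolic thioesterase that releases fatty acids from coenzyme A, was the highest of the 4 thioesterases. Its normalized counts were 2099, 1895 and 3039 in lean NK cells, 2149, 2178 and 2368 in obese NK cells, 3573, 4001 and 4442 in lean ILC1 and 3445, 986 and 4988 in obese ILC1. The ILC1 library of obese mouse 26 was the lowest of the 12 and the other 5 ILC1 libraries were above all NK libraries. The fitted log2 difference was 0.62 (SE 0.32, adjusted p = 0.332) with all libraries, 0.83 (SE 0.15, adjusted p = 0.0053) without that library and 1.06 (SE 0.09, adjusted p = 3.7e-05) without the 3 that stood apart. Acot9, a mitochondrial thioesterase, was at 797 to 1063 in NK cells and 337 to 989 in ILC1 (log2 difference -0.54, SE 0.24, adjusted p = 0.242). Acot13 was at 138 to 456 and 399 to 796 (0.60, SE 0.31, adjusted p = 0.347), and Acot2 lay between 115 and 419 in all libraries.

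Among the glycerolipid genes, Cept1, the last enzyme of phosphatidylcholine and phosphatidylethanolamine synthesis, was the highest. It had 935, 834 and 1283 normalized counts in lean NK cells, 909, 746 and 897 in obese NK cells, 1566, 1000 and 1478 in lean ILC1 and 538, 1881 and 1018 in obese ILC1, with the obese ILC1 libraries spanning the whole range. The log2 difference was 0.39 (SE 0.26, adjusted p = 0.536). Agpat3, which adds the second acyl chain in phospholipid synthesis, was read at 889, 997 and 1397 in lean NK cells, 882, 905 and 969 in obese NK cells, 653, 664 and 849 in lean ILC1 and 288, 416 and 446 in obese ILC1. The 4 groups descended in this order by their medians, and each obese ILC1 library was below each lean ILC1 library, which in turn was below each NK library. ILC1 were lower than NK cells by a log2 difference of -0.95 (SE 0.18, adjusted p = 0.010) with all libraries, -0.98 (SE 0.19, adjusted p = 0.0093) without the ILC1 library of obese mouse 26 and -0.73 (SE 0.13, adjusted p = 0.0040) without the 3 that stood apart. With the mouse as a replicate block the value was -0.96 and the adjusted p 0.059. Agpat3 lies on chromosome 10 from 78269178 to 78352489 on the minus strand.

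Chka, the choline kinase that starts phosphatidylcholine synthesis, had 207, 191 and 264 normalized counts in lean NK cells, 179, 162 and 148 in obese NK cells, 96, 110 and 227 in lean ILC1 and 29, 109 and 33 in obese ILC1. All but 1 of the ILC1 libraries were below all NK libraries. ILC1 differed from NK cells by a log2 value of -1.10 (SE 0.44, adjusted p = 0.203) with all libraries and -1.40 (SE 0.35, adjusted p = 0.022) without the 3 that stood apart. The other 5 genes of this group (Agpat1, Agpat4, Agpat5, Chkb and Abhd5) had adjusted p from 0.511 to 0.994 with all libraries. Agpat4 and Agpat5 were highest in the ILC1 library of obese mouse 26, at 854 and 804.

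Cers2, the synthase of very long-chain ceramides, was the highest of the ceramide synthases. Its normalized counts were 4132, 3438 and 3721 in lean NK cells, 3656, 3255 and 3434 in obese NK cells, 2091, 1968 and 2207 in lean ILC1 and 2386, 3581 and 1951 in obese ILC1. The ILC1 library of obese mouse 26 lay among the NK libraries and the other 5 ILC1 libraries below all of them. On the log2 scale ILC1 differed from NK cells by -0.65 (SE 0.14, adjusted p = 0.018) with all libraries, -0.78 (SE 0.10, adjusted p = 0.00065) without that library and -0.86 (SE 0.10, adjusted p = 0.00021) without the 3 that stood apart. With the mouse as a replicate block it was -0.66 with an adjusted p of 0.10. Cers4 went the other way, at 542 to 877 in NK cells and 609 to 1161 in ILC1 (log2 difference 0.41, SE 0.17, adjusted p = 0.215, and 0.59, SE 0.13, adjusted p = 0.013 without the 3). Cers5 and Cers6, which make ceramides of shorter chains, had adjusted p of 0.948 and 0.912.

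Promoters were searched because several of these genes are known targets of sterol- and fatty acid-sensing factors. RefSeq windows were at hand for 39 of the 46 genes and for 4065 genes in all, and the 250 bases before the start were read on both strands. The E-box CACGTG was found in 3 of the 39 (7.69%), Abca1, Cers2 and Cers6, against 8.68% of all promoters, and the sterol element in 1 (2.56%) against 1.08%. Direct repeats of AGGTCA at a spacing of 1 or 4 bases were found in 0 of the 39, and in 0.0984% and 0.0246% of all promoters, and no motif overlapped another in the windows printed. A match is a description of these letters. Of the 3 genes with an E-box, Cers2 was lower in ILC1 on the adjusted p alone and Abca1 and Cers6 were not (adjusted p = 0.912 for both). The window of Cers2 lies inside the annotated gene, which starts at 95314791. The 3 windows lie at chr4:53160007-53160072 (minus strand), chr3:95315031-95315096 (plus strand) and chr2:68861389-68861440 (plus strand). The E-box is in capitals with 30 bases to either side, as far as the start allows.
Abca1: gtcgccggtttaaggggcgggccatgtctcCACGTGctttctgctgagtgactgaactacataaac
Cers2: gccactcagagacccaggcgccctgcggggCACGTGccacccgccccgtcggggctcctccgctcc
Cers6: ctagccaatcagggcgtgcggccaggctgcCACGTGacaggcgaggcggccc

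The promoters of Acot7 and Acly are shown whole as the 250 bases before the RefSeq start, because these genes passed the adjusted p in opposite directions between the cell types without the ILC1 library of obese mouse 26, and because no annotated exon lies in them. Neither held any of the 4 motifs. That of Acot7 is chr4:152185358-152185607 (plus strand, GRCm38.p6) and has a GC content of 56.4% with 6 CpG sites. The annotated gene starts at 152178134, so this window lies inside the gene, before an internal RefSeq start. That of Acly is chr11:100528001-100528250 (minus strand) and has a GC content of 68.8% with 14 CpG sites.
Acot7: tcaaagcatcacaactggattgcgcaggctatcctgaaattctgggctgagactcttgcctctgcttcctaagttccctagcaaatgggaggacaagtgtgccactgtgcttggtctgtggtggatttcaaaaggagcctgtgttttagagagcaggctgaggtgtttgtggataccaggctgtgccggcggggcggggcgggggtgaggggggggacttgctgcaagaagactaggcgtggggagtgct
Acly: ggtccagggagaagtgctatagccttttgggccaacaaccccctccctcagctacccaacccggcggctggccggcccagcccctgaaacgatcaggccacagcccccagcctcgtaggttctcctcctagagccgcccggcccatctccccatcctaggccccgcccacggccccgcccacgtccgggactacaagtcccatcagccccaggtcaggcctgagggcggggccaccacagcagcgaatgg

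**Figure D3:**
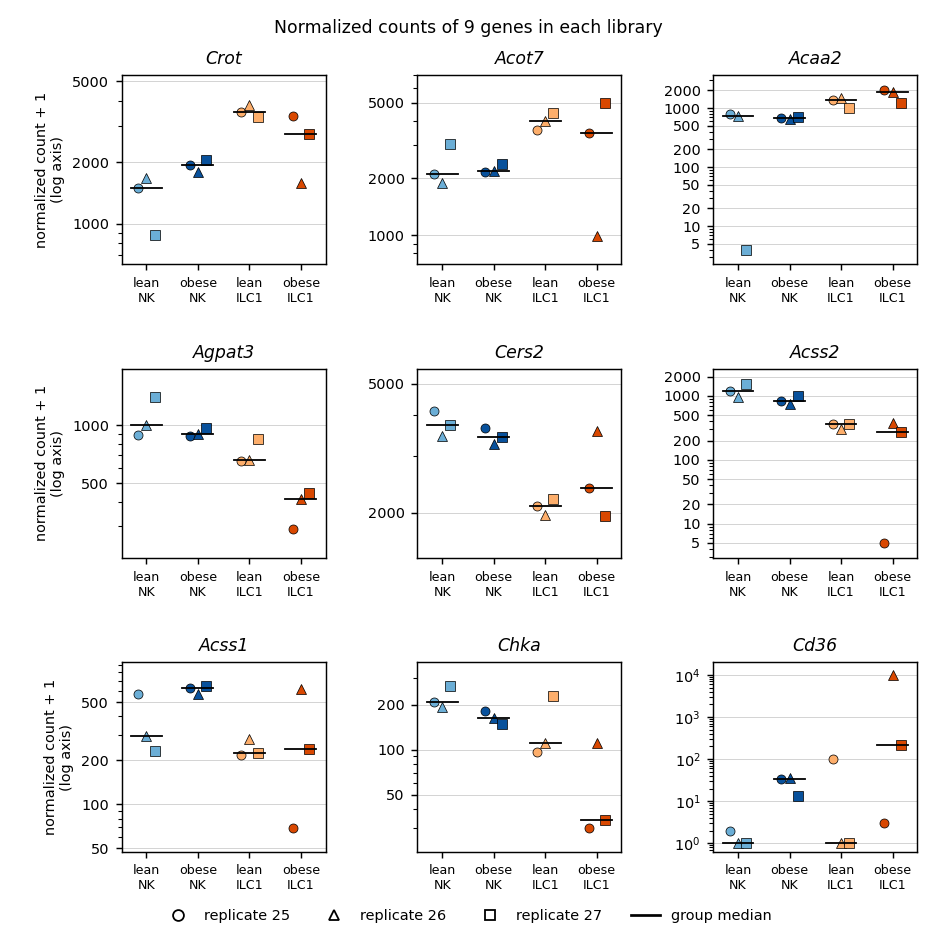
Normalized counts plus 1 (log axes) of 9 genes in each of 12 libraries. Symbols give the mouse number, colors the group and black lines the group median. Crot, Acot7 and Acaa2 are higher and Agpat3, Cers2 and Acss2 lower in ILC1 in most libraries, and the ILC1 library of obese mouse 26 lies apart for Crot, Acot7, Cers2 and Cd36.

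**Figure D4:**
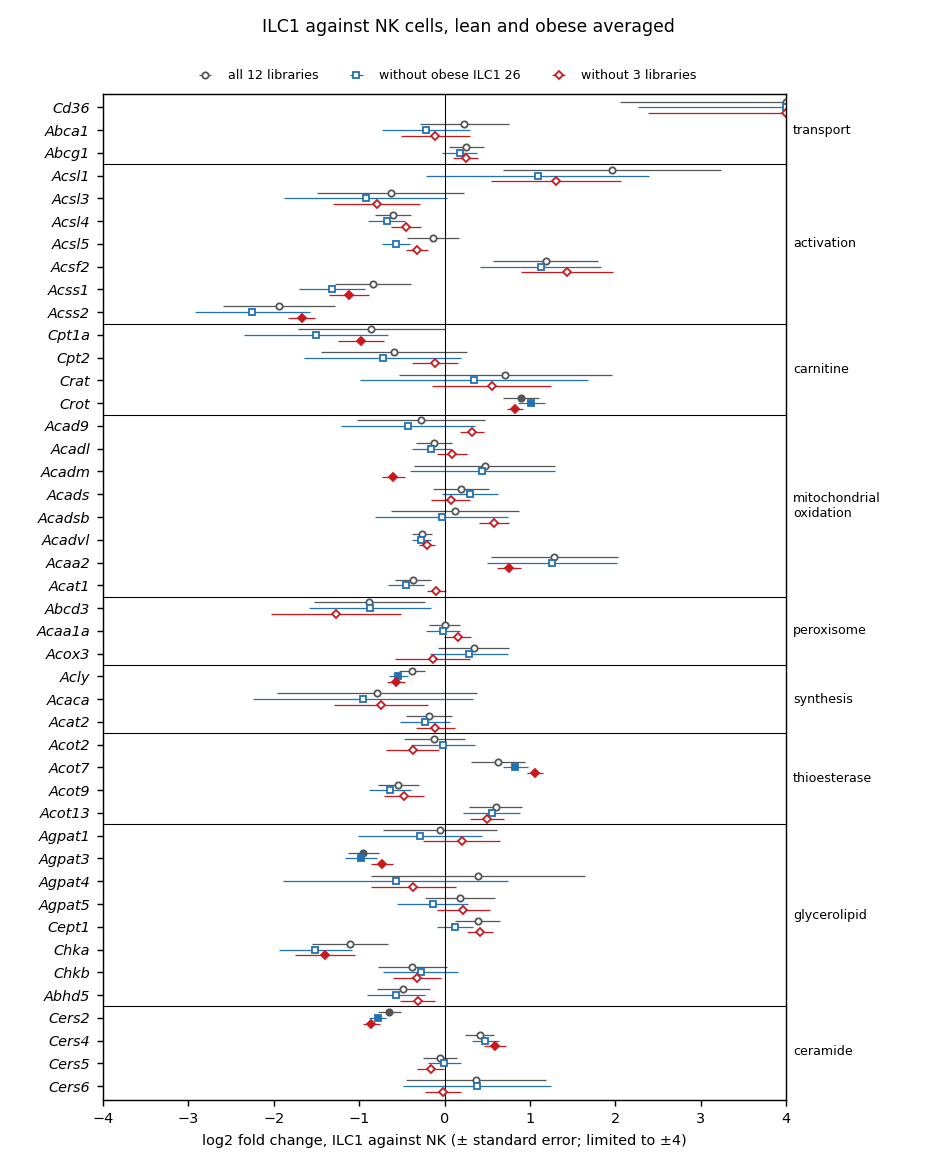
Log2 fold change of ILC1 against NK cells with its standard error for 44 genes by role, with all 12 libraries, without the ILC1 library of obese mouse 26, and without the 3 libraries that stood apart. Filled symbols have an adjusted p under 0.05. The 3 values of Cd36 lie beyond the axis and are drawn at its limit of 4.

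In lean mice alone, the comparison of ILC1 with NK cells called Crot higher (log2 difference 1.42, SE 0.31, adjusted p = 0.036), where 1.47% of all genes were called higher, and 0 of the 44 lower, where 0.789% were. By DESeq2 1 was called lower (Abcd3), and the share of all genes that DESeq2 called in lean or obese mice is not given here. In edgeR 9 of the 44 had an unadjusted p under 0.05 in either direction, where 13.2% of all genes did. Cers2 was lower on the adjusted p alone (-0.84, SE 0.19, adjusted p = 0.048). In obese mice Agpat3 was called lower (-1.32, SE 0.26, adjusted p = 0.038), where 0.376% of all genes were, and 0 of the 44 were called higher, where 0.526% were, also by DESeq2, with 5 of the 44 (11.4%) at an unadjusted p under 0.05 in edgeR, where 14.2% of all genes were. With the ILC1 library of obese mouse 26 left out, Crot was called in lean mice (2.04% of all genes higher and 1.31% lower) and Agpat3 in obese mice (1.27% higher and 0.694% lower). With the mouse as a replicate block neither was called, at an adjusted p of 0.079 for Crot in lean mice and of 0.174 for Agpat3 in obese mice.

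The libraries of lean ILC1 and lean NK cells did not overlap for 5 genes that were higher in ILC1 (Abcg1, Acaa2, Acot7, Cers4 and Crot), where 13.5% of all genes were apart in that direction, and for 11 that were lower (Abcd3, Acadvl, Acat1, Acly, Acot9, Acsl4, Acss2, Agpat3, Cers2, Cpt1a and Cpt2), where 11.1% were. In obese mice 4 were apart as higher (Acaa2, Acsf2, Agpat5 and Cers6, 9.28% of all genes) and 8 as lower (Acaca, Acsl3, Acsl4, Acss2, Agpat1, Agpat3, Chka and Chkb, 13.6%). Acaa2 was apart as higher and Acsl4, Acss2 and Agpat3 as lower in both diets. As shares of the 44 genes, these were 11.4% higher and 25% lower in lean mice, and 9.09% higher and 18.2% lower in obese mice. With 3 libraries a group, non-overlap is a weak criterion, as the shares of all genes show.

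The next comparison was of obese with lean mice within each cell type. With SARTools at the same thresholds, the paper did report genes that differed between obese and lean NK cells, nearly all of them higher in obese mice. Triglyceride catabolism was the only pathway it found overrepresented among them. In NK cells, 0 of the 44 genes and 0 of all 2661 were called higher or lower in obese mice (0% in both directions) by edgeR's quasi-likelihood test, 0 of the 44 and 35 of all genes (1.32%) had an unadjusted p under 0.05, and DESeq2 called 0 of the 44. The median log2 difference was 0.06 over the 44 and 0.10 over all genes. The 3 genes with the smallest p were Acat1, Cd36 and Crot. Acat1 was lower in each obese NK library (1087 to 1330 normalized counts) than in each lean one (1339 to 2719), by a narrow gap (log2 difference -0.57, SE 0.29, adjusted p = 1). Crot was higher in each obese library (1786 to 2051 against 881 to 1666), with a log2 difference of 0.55 (SE 0.30, adjusted p = 1).

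Cd36 had 1 raw count over the 3 lean NK libraries and 109 over the 3 obese ones, 16 to 51 in each. Corrected for library size, the ratio of obese to lean was 81.7, with an exact 95% binomial interval of 14.4 to 3255 that covers counting error only. In edgeR the difference had an adjusted p of 1, and the Cd36 level of the obese NK libraries, 12 to 34 normalized counts, was low beside the 9711 of the ILC1 library of obese mouse 26. The hepatocyte genes summed to 256 to 1016 normalized counts in the obese NK libraries and 64 to 256 in the lean ones. The Kupffer cell genes summed to 233 to 325 and 167 to 1159, and the endothelial and stromal genes to 12 to 120 and 4 to 46. Of the 10 Kupffer cell genes, 4 (Adgre1, Cd5l, Cd14 and Csf1r) had no read in any lean NK library, while each of the 10 was read in obese NK cells. Csf1r stood at 17, 14 and 7 there. Clec4f overlapped, at 29, 15 and 0 in obese and 0, 24 and 0 in lean NK cells. The highest Kupffer cell sum of the NK libraries, 1159, was that of lean mouse 27. The part of these other cells in the Cd36 counts was not tested. Besides Crot and Cd36, Acaca, Acsl3 and Agpat1 were higher in each obese NK library than in each lean one, 5 of the 44 where 10.1% of all genes were. With Acat1, Acad9 and Chka were lower, 3 of the 44 where 6.20% were. Acaca and Acsl3 were at or near 0 in the NK library of lean mouse 27.

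In ILC1, 0 of the 44 genes and 0 of all genes were called in obese against lean mice (0% in both directions) with all 12 libraries, while 7 of the 44 and 296 of all genes (11.1%) had an unadjusted p under 0.05. DESeq2 called 0 of the 44, although Agpat3 reached an adjusted p of 0.024 there at less than 2-fold. The share of all genes that DESeq2 called in ILC1 is not given here. Without the ILC1 library of obese mouse 26 edgeR called 0 of the 44, with 0.0771% of all genes called higher and 0% lower, and 5 of the 44 (11.4%) had an unadjusted p under 0.05, where 10.1% of all genes did. The median log2 difference over the 44 was 0.27 with that library and -0.05 without it, and over all genes 0.03 and -0.13.

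The 3 genes with the smallest p were Agpat3, Acly and Abcd3. Agpat3 was lower in each obese ILC1 library (288 to 446 normalized counts) than in each lean one (653 to 849), with a log2 difference of -0.95 (SE 0.26, adjusted p = 0.270) with all libraries and -0.97 (SE 0.29, adjusted p = 0.305) without that of mouse 26. Acly was higher in each obese library (1774 to 3563 against 1381 to 1703), by 0.68 (SE 0.22, adjusted p = 0.285) and, without mouse 26, by 0.38 (SE 0.16, adjusted p = 0.461). Abcd3 was higher in each obese library (180 to 632 against 6 to 148), by 2.75 (SE 0.97, adjusted p = 0.305) and 2.78 (SE 1.05, adjusted p = 0.429). None of these differences passed the adjustment.

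Libraries of obese and lean ILC1 did not overlap for 5 genes that were higher in obese mice (Abcd3, Acadvl, Acly, Agpat5 and Cers6), where 7.29% of all genes were apart, and for 5 that were lower (Acad9, Acadsb, Agpat3, Cers4 and Chkb), where 7.82% were. Without mouse 26 the same 5 were apart as higher (10.8% of all genes), and 8 as lower, the former 5 with Acsl3, Acss2 and Chka (14.1%). Acad9, Acadsb, Acsl3 and Acss2 had at most 3 raw counts in the ILC1 library of obese mouse 25.

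**Figure D5:**
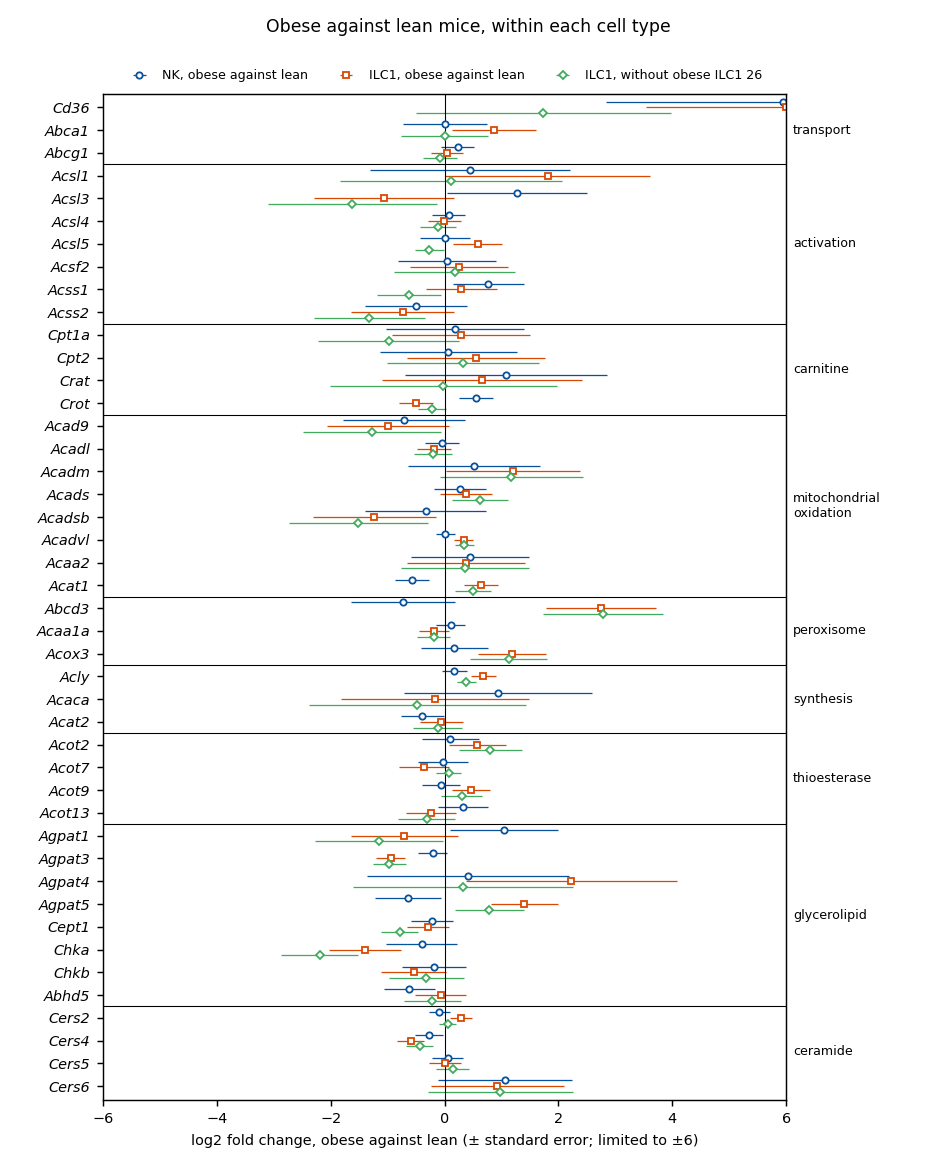
Log2 fold change of obese against lean mice with its standard error for 44 genes by role, in NK cells and in ILC1 with all 12 libraries, and in ILC1 without the library of obese mouse 26. No symbol is filled, since no gene had an adjusted p under 0.05. The ILC1 value of Cd36 with all libraries lies beyond the axis and is drawn at its limit of 6, and is at 1.73 without the library of mouse 26.

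Whether obesity acted differently on the 2 cell types was tested as the difference of the diet contrasts. None of the 44 genes and none of all 2661 was called in this test by edgeR (0% higher and 0% lower). DESeq2 called 0 of the 44, and the share of all genes that it called is not given here. An unadjusted p under 0.05 in edgeR was reached by 4 of the 44 and 169 of all genes (6.35%). The 4 were Abcd3, Acat1, Agpat5 and Crot. Acat1 had a log2 difference of -0.57 in NK cells and 0.64 in ILC1, which differ by 1.21 (SE 0.42, adjusted p = 0.75). Crot had 0.55 in NK cells and -0.50 in ILC1, a difference of -1.05 (SE 0.43, adjusted p = 0.752), and without the ILC1 library of obese mouse 26 of -0.76 (SE 0.33, adjusted p = 0.635).

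Levels of different genes were compared per kilobase of annotated exon, as the median over the 6 libraries of a cell type. In NK cells the highest were Acot7 (1019 normalized counts per kilobase), Cers2 (965), Acadvl (655), Acot13 (554) and Acsl5 (519). In ILC1 they were Acot7 (1783), Acaa2 (929), Acot13 (807), Crot (615) and Acadvl (592). Among the acyl-CoA synthetases Acsl5 was ahead of Acsl4 in NK cells (519 and 155) and in ILC1 (391 and 119), and Acsl1, Acsl3 and Acsf2 were at 14 or less. Acaca, at 3.7 in NK cells and 2.4 in ILC1, was the lowest of the synthesis genes that were tested, and Acly, at 482 and 329, the highest. Annotated exon length is the union over all transcripts of a gene and can exceed what these cells use.

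Outside the 46 genes, a list of 105 other lipid genes was tested in the same fits. Of the 59 with enough counts, 1 was called in ILC1 against NK cells, Bdh1, the gene of 3-hydroxybutyrate dehydrogenase. Of all 2661 genes, 3.04% were called higher and 1.16% lower. Bdh1 was higher in ILC1 (log2 difference 4.32, SE 0.96, adjusted p = 0.025). It had 99, 46 and 127 normalized counts in lean and 158, 105 and 30 in obese ILC1, against 16 at most in NK cells. Without the ILC1 library of obese mouse 26, 54 were tested and Acsbg1, a very long-chain acyl-CoA synthetase, was also called higher (2.70, SE 0.70, adjusted p = 0.040). In that fit 3.20% of all 2593 genes were called higher. Of these other lipid genes 0 were called between obese and lean mice in either cell type with all libraries, as were 0 of all 2661 genes. Cav2, a caveolin gene, had 184, 256 and 304 normalized counts in lean ILC1 and 552, 807 and 9 in obese ILC1. With all libraries its log2 difference of obese against lean ILC1 was 0.81 (SE 1.36, adjusted p = 0.899). Without the 3 libraries that stood apart it was -4.84, which rests on the 1 obese ILC1 library left, that with 9 counts.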

How the data were processed

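The authors deposited 1 table of 12 libraries, with raw read counts per gene and a normalized score, which is these counts divided by a factor for each library (0.570 to 1.52) and rounded. Columns of the authors' own comparisons were not used. The submitters' processing notes name bcl2fastq 2.19, Trimmomatic 0.36.5, STAR 2.5.2b and featureCounts 1.6.0.2 with the mouse build mm10. The annotation and the use of strand are not given in the sources used here. The study itself ran SARTools, and its thresholds (a fold change over 2 with an adjusted p under 0.05) were kept.

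Libraries were grouped by their titles. The 5545 genes with complete rows were used and 1 incomplete row was left out. Totals over them, 1666637 to 2826766 counts a library, understate the depth. Genes with 10 or more counts in at least 3 libraries were tested in R 4.3.3 with edgeR 4.0.16 (TMM, glmQLFit, glmQLFTest, 1 model of 4 groups), with Benjamini-Hochberg adjustment over all genes tested. The filter was applied again where libraries were left out. Standard errors were derived from each log2 fold change and its F statistic. The tests were tested on simulated data. Replicates are single mice, and no pair of libraries within a group held identical counts. NK cells and ILC1 of the same number and diet come from the same mouse, so the mouse was also fitted as a replicate block. Deviations of such pairs from their group means correlated with an r from -0.0713 to 0.119. Alternatives were DESeq2 1.42.0, other normalizations, other filters, no fold change threshold and leaving out each library. After the data had been seen, robust dispersions and a fit without the 3 libraries that stood apart were added.

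The genes, their roles and all other lists were chosen with earlier results of these data known. Values for each library are given for genes called with all libraries or without the ILC1 library of obese mouse 26, for the 3 with the smallest p in each diet comparison, and for the gene with the highest mean in each of 9 roles. Positions and exon lengths are from GENCODE vM21 by symbol (all 46 matched), and promoter sequences from RefSeq on GRCm38.p6. For 1 gene of the list of other lipid genes the result is not reported here.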

Additional observations from a re-analysis of the deposited data

How the results depend on the processing

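None of the log2 fold changes followed through the alternatives (23 values of named genes in their comparisons, 21 fits each) changed sign, although Acadm, which was not followed, did so between the fits given above. With all 12 libraries, 0 lipid genes were called higher and 0 lower in ILC1 against NK cells. DESeq2 called 1 higher and 1 lower, no fold change threshold gave 1 and 2, and leaving out the 3 libraries that stood apart gave 1 and 3. In lean mice 1 was called higher and 0 lower. The replicate block gave 0 higher, and DESeq2, no fold change threshold and the fit without the 3 libraries gave 1 lower each, the last with 4.80% of all genes called higher and 3.76% lower. In obese mice 0 were called higher and 1 lower. The replicate block, no filter on low counts, and edgeR with the size factors of DESeq2 or of the authors gave 0 lower. For obese mice the fit without the 3 libraries leaves 1 ILC1 library, and its calls are not given.

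With each library left out in turn, the number called in ILC1 against NK cells ran from 0 to 1 higher and 0 to 1 lower, in lean mice from 0 to 1 higher and 0 to 1 lower, and in obese mice from 0 to 1 higher and 0 to 2 lower. Among these fits, the share of all genes called is given only for that without the ILC1 library of obese mouse 26. The call of Crot in lean mice was lost without any of the 3 lean NK, 3 obese NK or 3 lean ILC1 libraries or the ILC1 library of obese mouse 27 (adjusted p 0.052 to 0.129). That of Agpat3 in obese mice was lost without the NK library of lean mouse 25 or 26 or without any obese NK or lean ILC1 library (adjusted p 0.062 to 0.235). Without the ILC1 library of obese mouse 25, Cd36 was called higher and Acss2 lower in ILC1 against NK cells, and without that of lean mouse 27 or of obese mouse 27 Agpat3 was called lower. Without the NK library of lean mouse 27 Acaa2 was called higher in obese mice, and without the ILC1 library of lean mouse 26 Abcd3 lower in lean mice. The cause was not tested. With the paired replicate block, the whole table had 30 genes called higher and 13 lower in ILC1 against NK cells in place of 81 and 31, and DESeq2 called 140 and 62. None of the 44 lipid genes tested was called between obese and lean mice, or in the difference of the diet contrasts, under any alternative run. In the main edgeR fit 0 of all 2661 genes were called in these comparisons either.

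With 3 mice a group and gaps in single libraries, the log2 differences of ILC1 against NK cells had standard errors of 1.17 for Acaca, 1.25 for Crat, 1.28 for Acsl1 and 1.95 for Cd36, and estimates as large as 1.96 for Acsl1 (adjusted p = 0.511) and 6.56 for Cd36 (adjusted p = 0.080) did not pass the test.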
